A study of Homo sapiens with 24 samples.

Results

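Most genes that LPS raises in macrophage-like THP-1 cells were lower when the cells had first been exposed to DCVC, and the 51 genes described here did the opposite. They were selected on their measured values from 38735 named genes. A member had a mean of at least 50 normalized counts over the 24 libraries, an LPS minus Control difference of at least 1, and a DCVC_LPS minus LPS difference of at least 0.5. Differences are between group means of log2(normalized count + 1), so that 1 is about a doubling, and for genes with few counts the added 1 shrinks the difference. GCLM, GSR, TXNRD1, OSGIN1, SLC7A11 and SRXN1, 6 known targets of the transcription factor NRF2, were left out by name, and 3 of them (GCLM, TXNRD1 and SLC7A11) met the thresholds. The members make up 2.75% of the 1853 genes with that mean and that LPS minus Control difference. Of the 1799 others, without the 3 left-out genes, 95.8% had a DCVC_LPS minus LPS difference under 0.

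The study measured poly-A RNA in 4 groups of 6 libraries, which carry the letters A to F, from the human monocytic leukaemia cell line THP-1. In all 4 groups the cells had first been differentiated with 100 nM PMA, a phorbol ester, for 24 h. DCVC_LPS cells received 5 µM DCVC for 24 h and then, in fresh medium, 100 ng/mL LPS for 4 h, LPS cells received the same LPS after medium alone, DCVC cells received DCVC alone, and Control cells received neither. DCVC, S-(1,2-dichlorovinyl)-L-cysteine, is a metabolite of the solvent trichloroethylene, and LPS is the lipopolysaccharide of gram-negative bacteria. Whether libraries within 1 group stem from separate cultures is not stated in the labels, and the p-values therefore cover only the spread between these libraries, which may be technical.

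LPS is sensed by TLR4, which switches on NF-kB, AP-1 and interferon-driven transcription and with it cytokine genes. Electrophilic compounds act on a separate sensor, KEAP1, which then releases the transcription factor NRF2 to bind antioxidant response elements (AREs) in front of detoxifying and redox genes. ATF3 and heat shock genes belong to further stress programmes, of which the heat shock genes answer damaged proteins. SQSTM1 is counted among the NRF2 targets below.

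Per library, 20352552 to 26232127 reads fell in named genes in DCVC_LPS, 19985317 to 30107819 in LPS, 18478618 to 22015664 in DCVC and 19675823 to 27986524 in Control. The deposited totals differed between groups, in units of 1e6 normalized counts at 21.8 ± 0.235 in DCVC_LPS, 29.4 ± 0.839 in LPS, 17.8 ± 0.306 in DCVC and 21.1 ± 0.564 in Control (mean ± SD, n = 6 each). On the log2 scale the ratio of these totals was -0.43 for DCVC_LPS to LPS, 0.48 for LPS to Control and -0.25 for DCVC to Control. The totals therefore bear on which genes meet the rule. After scaling to equal totals 58 genes met it, 33 of them members, and 18 members no longer did, among them ATF3, SQSTM1, BRCA2, ME1, HSPA1L and CYB5R2. The 18 had LPS minus Control differences of at most 1.46 (CYB5R2) on the deposited scale and fell below that threshold. Equal totals move LPS minus Control differences down and DCVC_LPS minus LPS differences up, so the 95.8% above belongs to the deposited scale. All 10 macrophage markers were present, with summed levels of 34757 to 38823 in DCVC_LPS, 31412 to 37069 in LPS, 46774 to 53969 in DCVC and 62309 to 79835 in Control. Single markers moved in different directions. CD14, a co-receptor for LPS, averaged 30.4 in DCVC_LPS, 176 in LPS, 289 in DCVC and 2520 in Control. Lysozyme (LYZ) averaged 3716 in DCVC_LPS, 1628 in LPS, 3223 in DCVC and 1455 in Control. The myeloid factor SPI1 averaged 8701 in DCVC_LPS, 4743 in LPS, 6376 in DCVC and 6967 in Control. CD68 was low throughout, with a mean of 14.4. The summed T cell markers stayed at or below 6.85 in every library, and CD2 was at 0 in all of them. Among markers of other cells, the summed neutrophil list (its level mostly 1 gene) ran from 1354 to 2738 in DCVC_LPS, 712 to 1236 in LPS, 1290 to 2447 in DCVC and 525 to 1150 in Control, and the endothelial list was lowest in DCVC_LPS, at 1020 to 1504, and highest in Control, at 4552 to 7440. In bulk RNA, fewer cells expressing a gene and less RNA per cell cannot be told apart, and the part of these shifts in the results was not tested.

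Promoter sequences are shown for 5 members, each among those with the largest differences or the highest levels or, for CYB5R2, with a called fall with DCVC alone, whose proximal promoter held an ARE core or a kappaB consensus, the sequences that NRF2 and NF-kB are known to bind. Each runs from 250 bases before to 50 after the RefSeq start on build GRCh38.p14, 5′ to 3′ on the gene's strand, and capitals mark the motif matches. Such a window existed for 37 of the 51 members. The window of SGPP2 (plus strand, chr2:222423738-222424037) held 2 kappaB matches, and that of ME1 (minus strand, chr6:83431002-83431301) 2 ARE cores. RFFL (minus strand, chr17:35089177-35089476), TFEC (minus strand, chr7:116030714-116031013) and CYB5R2 (minus strand, chr11:7673451-7673750) each had 1 ARE core. The later core of ME1 and the core of CYB5R2 lay past the RefSeq start.
SGPP2: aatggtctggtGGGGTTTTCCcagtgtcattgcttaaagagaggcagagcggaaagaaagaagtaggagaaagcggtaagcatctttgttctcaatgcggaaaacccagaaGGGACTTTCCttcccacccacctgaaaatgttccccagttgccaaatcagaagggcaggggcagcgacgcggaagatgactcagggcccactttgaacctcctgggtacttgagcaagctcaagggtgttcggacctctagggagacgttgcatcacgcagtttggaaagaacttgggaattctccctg
ME1: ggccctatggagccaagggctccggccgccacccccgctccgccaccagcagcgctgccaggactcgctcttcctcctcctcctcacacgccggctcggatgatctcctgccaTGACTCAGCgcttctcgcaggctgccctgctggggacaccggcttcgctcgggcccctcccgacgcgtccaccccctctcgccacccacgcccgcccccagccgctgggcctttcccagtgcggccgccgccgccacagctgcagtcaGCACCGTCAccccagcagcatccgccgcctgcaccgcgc
RFFL: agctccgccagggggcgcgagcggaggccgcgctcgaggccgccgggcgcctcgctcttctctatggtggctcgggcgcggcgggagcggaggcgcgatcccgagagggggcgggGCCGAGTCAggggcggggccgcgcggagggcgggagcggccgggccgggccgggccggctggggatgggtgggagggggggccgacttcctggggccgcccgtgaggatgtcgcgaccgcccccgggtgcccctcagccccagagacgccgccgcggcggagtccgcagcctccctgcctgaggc
TFEC: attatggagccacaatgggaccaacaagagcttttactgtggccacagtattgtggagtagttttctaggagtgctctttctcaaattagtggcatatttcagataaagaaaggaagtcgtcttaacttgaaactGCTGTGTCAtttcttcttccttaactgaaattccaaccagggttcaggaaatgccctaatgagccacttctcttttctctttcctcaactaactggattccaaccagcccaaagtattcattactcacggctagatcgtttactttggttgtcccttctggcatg
CYB5R2: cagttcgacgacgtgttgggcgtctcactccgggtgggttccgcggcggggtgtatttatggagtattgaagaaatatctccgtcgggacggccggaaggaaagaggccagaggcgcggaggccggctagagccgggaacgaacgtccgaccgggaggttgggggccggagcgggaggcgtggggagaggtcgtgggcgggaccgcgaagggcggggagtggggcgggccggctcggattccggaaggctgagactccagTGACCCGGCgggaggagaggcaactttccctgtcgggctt

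The ARE core, TGACNNNGC on either strand, was present in 6 of the 37 member promoters (16.2%), against 15.2% of 1460 promoters of other LPS-raised genes and 13.6% of all 27305 promoters in the table. Its 6 carriers were PRECSIT, RFFL, LUCAT1, ME1, TFEC and CYB5R2, and in 3 of them the match overlapped an AP-1 site, TGANTCA. That AP-1 site was present in 5 member promoters (13.5%), against 6.03% of other LPS-raised and 7.76% of all promoters. The kappaB consensus was present in 5 (13.5%, in SGPP2, FZD5, ING2, PIGV and ASH1L-AS1), against 9.52% and 5.72%. The CRE, TGACGTCA, was in 0 of 37, against 4.25% and 1.98%, and the ISRE core, TTCNNTTTC, in 2 (5.41%), against 10.3% and 8.29%. A match is a run of letters and not a shown binding site, and with 37 promoters these shares are descriptions.

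Levels differed widely among the members. Their means over 24 libraries ran from 52.9 to 31579 normalized counts with a median of 206, and 15 were under 100. These counts are not divided by gene length, so levels are compared between groups and not between genes. The DCVC_LPS minus LPS difference ran from 0.51 to 3.81 on the log2 scale (median 0.84), with 22 members at 1 or more and 6 at 2 or more, among them NMRAL2P, BRCA2, TEX41, SGPP2 and ADTRP. The LPS minus Control difference ran from 1.02 to 6.66 (median 1.76). Both differences chose the members and are given without a test. In 43 members every DCVC_LPS library lay above every LPS library, which held for 22.4% of the 13900 tested genes. In 45 every LPS library lay above every Control library (28.7% of tested genes), and in all 51 every DCVC_LPS library lay above every DCVC library (22.1%). By limma, 33.3% of tested genes were raised and 39.4% lowered in DCVC_LPS against LPS. Each of the 51 members had its highest mean level in DCVC_LPS, which the rule fixes against LPS and Control. The counts of non-overlapping libraries above also use libraries that chose the members. Their excess over the shares of all tested genes is thus partly set by the choice and is no separate support.

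**Figure D1:**
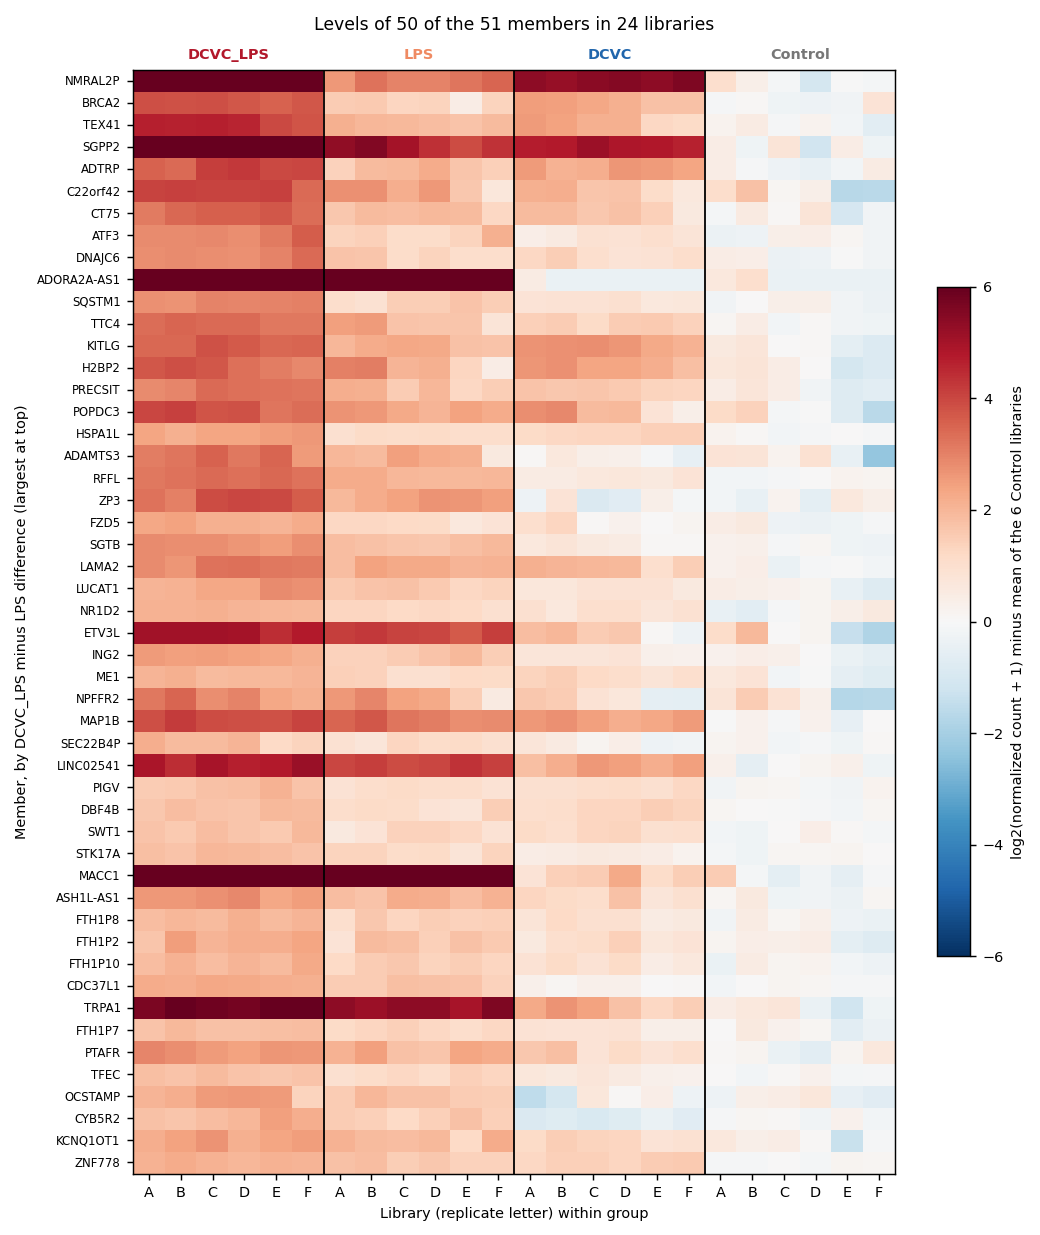
Levels of 50 of the 51 members (rows, ordered by the DCVC_LPS minus LPS difference) in 24 libraries (columns, letters A to F in DCVC_LPS, LPS, DCVC and Control), as log2(normalized count + 1) minus the mean of the 6 Control libraries, with colours capped at 6. The DCVC_LPS columns are on average the darkest red, except where LPS reaches the colour cap too (ADORA2A-AS1 and MACC1), and most rows are also red in DCVC, while CYB5R2 is blue there.

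The comparison that the rule did not use is DCVC alone against Control. There 44 of the 51 members rose (86.3%), 1 fell (CYB5R2, 1.96%) and 6 did not pass the test, by limma with Benjamini-Hochberg adjusted p under 0.05 over all 13900 tested genes. Among all tested genes 27.5% rose and 32.2% fell, and among the 1799 other LPS-raised genes 20.6% rose and 37.3% fell. The median DCVC minus Control change was 1.13 over the members (quartiles 0.60 and 1.66), -0.12 over the other LPS-raised genes and -0.03 over all tested genes. A rise of at least 2-fold was called for 29 members (56.9%), against 2.67% of the other LPS-raised and 6.15% of all tested genes. The Control libraries also entered the LPS minus Control difference that chose the members, and the DCVC libraries entered the mean over 24 libraries. This comparison is thus not fully independent of the choice, and the compound is the same as in the DCVC_LPS minus LPS difference. DCVC lay above Control under the same letter for all 6 letters in 44 members, a count that was not made over all tested genes. In 30 of the raised members every DCVC library lay above every Control library, which held for 16.6% of tested genes.

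At equal totals 45 members rose and 1 fell with DCVC alone, while the split over all tested genes turned to 6452 raised and 2789 lowered, against 3820 and 4478 on the deposited scale. Within the letter pairs A and B, C and D, and E and F, whose libraries deviated together, 41, 45 and 40 members rose. Among all tested genes 3495 of 13770, 3923 of 13918 and 2299 of 13961 rose in these settings. The median change was 0.92 for letter A, 0.85 for B, 1.14 for D, 1.21 for E and 1.09 for F, with C the highest.

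**Figure D2:**
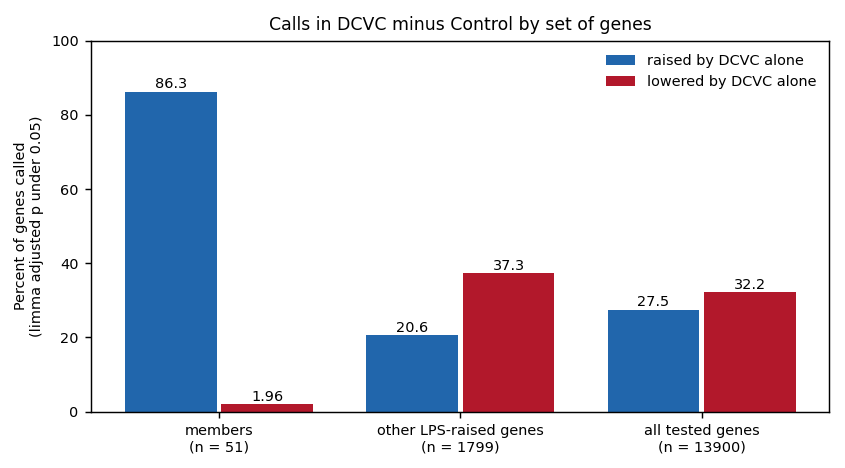
Percent of genes called raised (blue) or lowered (red) in DCVC against Control by limma, for the 51 members, the 1799 other LPS-raised genes and all 13900 tested genes. Raised calls make up 86.3% of the members, against 20.6% and 27.5% of the other sets.

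Stress transcription and protein quality control contributed 8 members, all of them raised by DCVC alone. ATF3, a stress-induced transcription factor that restrains many LPS-driven genes, ran from 10553 to 19176 normalized counts in DCVC_LPS (median 11017), 3267 to 6671 in LPS (3797), 2003 to 3052 in DCVC (2646) and 1185 to 1990 in Control (1496). No group overlapped its neighbour, and library F stood highest in both LPS-treated groups, at 19176 and 6671. Its DCVC minus Control change was 0.74 ± 0.17 (SE, limma adjusted p = 0.000791), smaller than the 1.61 between DCVC_LPS and LPS. SQSTM1, the autophagy receptor p62, which also binds KEAP1, ran from 63675 to 80495 in DCVC_LPS (median 76174), 18438 to 32155 in LPS (27098), 15488 to 19367 in DCVC (17867) and 7759 to 12746 in Control (9354). Letters A and B were the lowest in DCVC_LPS and in LPS, and the LPS and DCVC libraries overlapped. SQSTM1 rose by 0.82 ± 0.13 with DCVC alone (limma adjusted p = 7.44e-06), against a difference of 1.55 under LPS.

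HSPA1L, a constitutive member of the HSP70 family, had 458 to 642 in DCVC_LPS (median 545), 205 to 234 in LPS (223), 228 to 283 in DCVC (259) and 91.9 to 119.8 in Control (103). DCVC and LPS alone gave overlapping levels. The change with DCVC was the same on both backgrounds, 1.31 ± 0.08 without LPS (limma adjusted p = 1.97e-12) and 1.31 under LPS. The neighbouring inducible HSP70 genes differed from it. HSPA1A was lower in DCVC_LPS than in LPS by 0.58 on the log2 scale, with medians of 223 and 327, and HSPA1B was higher by 0.31, with medians of 1233 and 1029. DNAJC6 is auxilin, a J-domain protein that uncoats clathrin vesicles, and ran from 511 to 799 in DCVC_LPS (median 538), 157 to 246 in LPS (176), 135 to 209 in DCVC (156) and 58.7 to 103 in Control (70.1). It rose by 1.09 ± 0.16 with DCVC alone (limma adjusted p = 3.07e-06).

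TTC4, an HSP90 co-chaperone, had 160.4 to 206 in DCVC_LPS (median 191), 29.9 to 105 in LPS (58.4), 39.7 to 53.3 in DCVC (49.3) and 14.5 to 23.9 in Control (16.7), and rose by 1.43 ± 0.21 with DCVC (limma adjusted p = 2.39e-06). Its LPS libraries spread widely, all below the lowest DCVC_LPS library. SGTB, a small glutamine-rich co-chaperone, had 4144 to 5214 in DCVC_LPS (median 5074), 2255 to 2846 in LPS (2555), 774 to 1239 in DCVC (1063) and 594 to 902 in Control (745), so that LPS moved it more than DCVC did. CDC37L1, an HSP90-binding relative of CDC37, ran from 2482 to 2810 in DCVC_LPS (median 2572), 1484 to 1964 in LPS (1743), 580 to 705 in DCVC (650.0) and 498 to 631 in Control (556). Its rise with DCVC alone was small, 0.20 ± 0.08 (limma adjusted p = 0.0279), and the call was lost without Control library A, E or F or DCVC library A, C or D (limma adjusted p up to 0.0756). RFFL, an E3 ubiquitin ligase, had 1677 to 2016 in DCVC_LPS (median 1809), 727 to 885 in LPS (742), 259 to 325 in DCVC (285) and 164 to 217 in Control (182), with no overlap between any groups. RFFL shares 44.1% of its exon bases with LIG3 on the other strand, and without strand reads of the 2 genes cannot be told apart. LIG3 itself differed by -0.19 between DCVC_LPS and LPS, but by 1.27 between LPS and Control and by 0.51 between DCVC and Control. The change of RFFL with DCVC alone was 0.62, and the part of LIG3 reads in it was not tested. Members such as these were grouped by role after the list was known. A list of 22 heat shock proteins and cochaperones, also chosen by hand, does not include the members above, so that it holds none of them is no result. Of its 20 tested genes 6 rose and 7 fell with DCVC alone (median 0.01), against 27.5% and 32.2% of all tested genes.

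**Figure D3:**
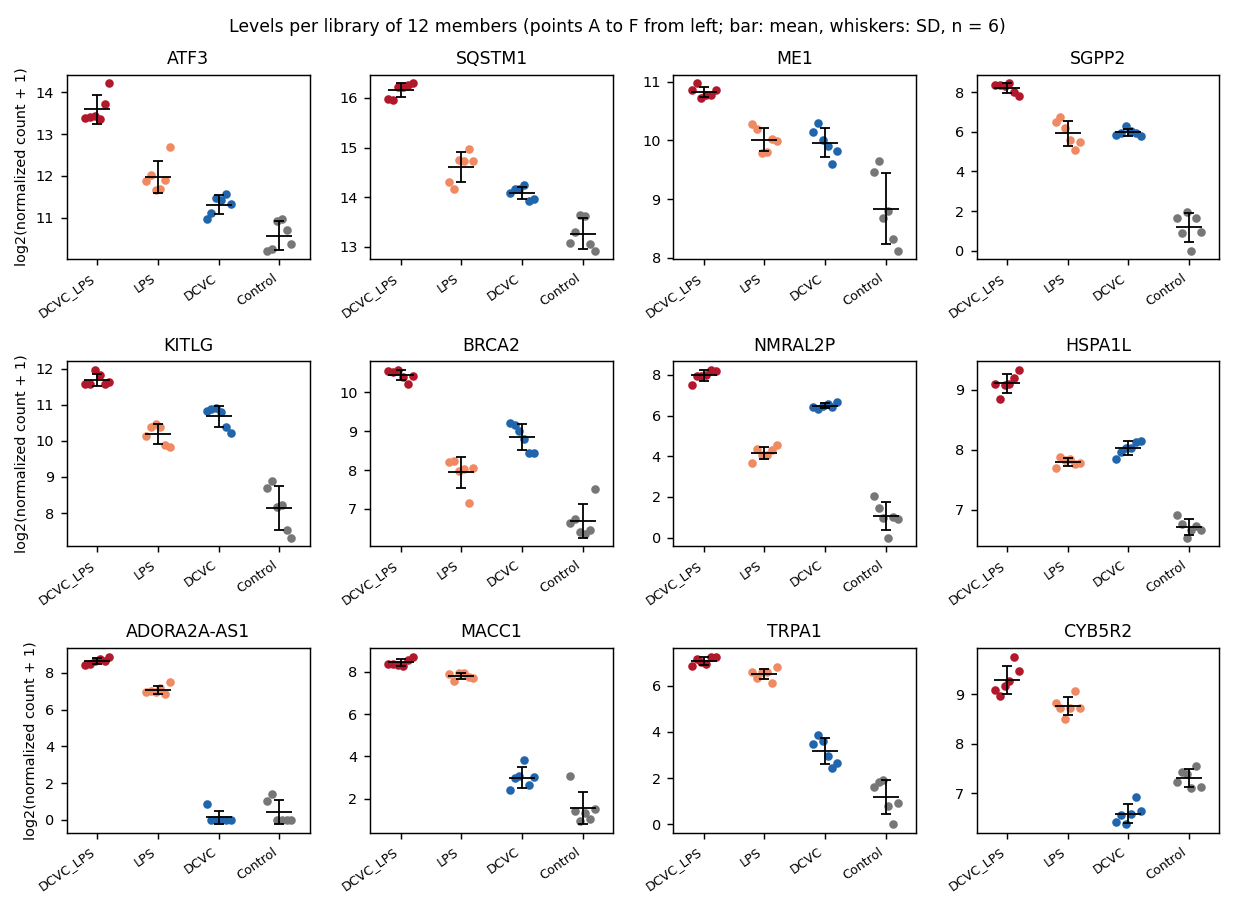
Level of 12 members in each library, as log2(normalized count + 1) on axes that do not start at 0; points are letters A to F from left to right, bars the mean and whiskers the SD (n = 6) in DCVC_LPS, LPS, DCVC and Control. ATF3 and SQSTM1 step down through the 4 groups, BRCA2, NMRAL2P, KITLG and HSPA1L stand higher in DCVC than in LPS on average, and ADORA2A-AS1 is near 0 without LPS.

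Enzymes of redox and lipid metabolism were 5 members. ME1, the cytosolic malic enzyme that makes NADPH and a known NRF2 target, had 1701 to 2023 in DCVC_LPS (median 1801), 884 to 1238 in LPS (1025), 775 to 1254 in DCVC (995) and 277 to 802 in Control (426). LPS and DCVC alone overlapped almost fully, DCVC_LPS stood above both, and Control letters A and B were the highest of their group at 703 and 802. ME1 rose by 1.13 ± 0.19 with DCVC alone (limma adjusted p = 1.35e-05), and its promoter, printed above, holds 2 ARE cores.

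SGPP2, a phosphatase that removes the phosphate of sphingosine 1-phosphate, ran from 226 to 346 in DCVC_LPS (median 323), 33.4 to 105 in LPS (58.8), 54.4 to 77.8 in DCVC (60.5) and 0 to 2.84 in Control (1.49). Control cells held 9 reads of it over the 6 libraries. Either agent alone gave overlapping levels, and the combination exceeded them without overlap. Its change of 4.81 ± 0.28 with DCVC alone (limma adjusted p = 6.23e-13) was 2.52 larger than its difference of 2.29 under LPS, the widest such gap among the members. ADTRP, a membrane hydrolase of fatty-acid esters, had 123 to 219 in DCVC_LPS (median 180.0), 29.7 to 53.7 in LPS (39.5), 47.9 to 72 in DCVC (62.8) and 7.61 to 15.4 in Control (9.81), and rose by 2.40 ± 0.19 with DCVC alone (limma adjusted p = 1.57e-10). PIGV, a mannosyltransferase of GPI-anchor synthesis, had medians of 553 in DCVC_LPS, 352 in LPS, 342 in DCVC and 168 in Control.

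CYB5R2, a cytochrome b5 reductase, was the member that fell with DCVC alone. It had 81.9 to 120.0 in DCVC (median 94.4) and 137 to 187 in Control (157), without overlap, a change of -0.72 ± 0.12 (limma adjusted p = 2.47e-05). Under LPS the order turned, with 498 to 866 in DCVC_LPS (median 598) and 361 to 538 in LPS (423), although the libraries overlapped. The promoter of CYB5R2 also holds an ARE core.

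Among receptors, channels and ligands, 5 of 6 members rose with DCVC alone. KITLG, or stem cell factor, the ligand of the receptor KIT, had 3025 to 3998 in DCVC_LPS (median 3097), 907 to 1408 in LPS (1232), 1197 to 1937 in DCVC (1804) and 159 to 468 in Control (291). It rose by 2.54 ± 0.20 with DCVC alone (limma adjusted p = 1.53e-10), more than the 2.05 between LPS and Control.

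TRPA1, a cation channel opened by electrophiles, had 113 to 152 in DCVC_LPS (median 136), 69.4 to 109.6 in LPS (94.2), 4.44 to 13.7 in DCVC (8.47) and 0 to 2.84 in Control (1.5, 10 reads in all). It rose by 1.98 ± 0.28 with DCVC alone (limma adjusted p = 1.59e-06), but stayed well below its level with LPS, and it shares 15.4% of its exon bases with MSC-AS1 on the other strand. PTAFR, the receptor of platelet-activating factor, had 134 to 190 in DCVC_LPS (median 152), 77.6 to 138 in LPS (110.4), 42.7 to 86.9 in DCVC (51.4) and 15.2 to 38 in Control (26.1), with some overlap of DCVC_LPS and LPS. FZD5, a Wnt receptor that binds WNT5A, had 1214 to 1562 in DCVC_LPS (median 1331), 454 to 686 in LPS (648), 298 to 701 in DCVC (340) and 230 to 432 in Control (257). DCVC and Control overlapped, and the rise of 0.47 ± 0.19 (limma adjusted p = 0.0377) was lost without Control library C, D, E or F or DCVC library A or B (limma adjusted p up to 0.13). Within each of the 6 letters, which this fit did not pair, DCVC lay above Control. NPFFR2, a neuropeptide FF receptor, had a change of 0.59 ± 0.52 and did not pass the test (limma adjusted p = 0.338), although DCVC lay above Control within each of the 6 letters. NPFFR2 lies 133 kb from ADAMTS3, another member, with 0 protein-coding genes between them.

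All 8 nuclear and cell cycle members rose with DCVC alone. BRCA2, a repair protein of homologous recombination, had 1182 to 1530 in DCVC_LPS (median 1418), 140.2 to 302 in LPS (261), 349 to 593 in DCVC (481) and 81.4 to 181 in Control (93.1). Every DCVC library lay above every LPS library, as for NMRAL2P and for no other member, and BRCA2 rose by 2.16 ± 0.19 with DCVC alone (limma adjusted p = 7.28e-10). ETV3L, an ETS-family factor, had 3223 to 4819 in DCVC_LPS (median 4769), 1914 to 2774 in LPS (2509), 118 to 589 in DCVC (437) and 40.7 to 571 in Control (155). DCVC and Control overlapped, the change of 1.13 ± 0.47 had an adjusted p of 0.0406 by limma, and edgeR and DESeq2 on the recovered reads did not call it. The call also ended without Control library C, D, E or F or DCVC library A, B, C or D (limma adjusted p up to 0.132). Within each of the 6 letters DCVC lay above Control, and the call held in the fit that paired the letters.

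TFEC, a macrophage member of the MiT family of lysosome regulators, had 5872 to 7289 in DCVC_LPS (median 6315), 3809 to 5142 in LPS (4375), 2304 to 3165 in DCVC (2837) and 1725 to 2307 in Control (1900.3). DCVC and Control touched at 1 library, and TFEC rose by 0.51 ± 0.09 (limma adjusted p = 2.22e-05). ZNF778, a zinc finger protein, had medians of 956 in DCVC_LPS, 668 in LPS, 616 in DCVC and 223 in Control, and the smallest DCVC_LPS minus LPS difference of the members, 0.51. NR1D2, the circadian repressor REV-ERB beta, ING2, a reader of methylated histone H3, DBF4B, an activator of the CDC7 kinase, and SWT1, an RNA endonuclease, differed by 0.68 to 0.84 between DCVC_LPS and LPS. Their changes with DCVC alone were 0.88 for NR1D2, 0.58 for ING2, 1.25 for DBF4B and 1.12 for SWT1.

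Of 6 matrix, membrane and cytoskeleton members, 3 rose with DCVC alone and 3 did not pass the test. MAP1B, a microtubule-binding protein of neurons, had 914 to 1208 in DCVC_LPS (median 962), 442 to 872 in LPS (572), 295 to 436 in DCVC (366) and 45.8 to 77.7 in Control (64.1). All 4 groups were apart, and MAP1B rose by 2.47 ± 0.15 with DCVC alone (limma adjusted p = 1.01e-12), against a difference of 0.77 under LPS. LAMA2, a laminin chain, rose by 1.76 ± 0.18 (limma adjusted p = 1.12e-08), and POPDC3, a cAMP-binding Popeye protein, by 1.78 ± 0.42 (limma adjusted p = 0.000831). ADAMTS3, a procollagen protease, had 82.7 to 163 in DCVC_LPS (median 128), 19.9 to 76.3 in LPS (58.5), 8.92 to 20.5 in DCVC (15) and 1.81 to 25.9 in Control (19.1), and its DCVC minus Control change was 0.13 ± 0.41. ZP3, an egg-coat glycoprotein gene, likewise stood apart in DCVC_LPS (87.1 to 170.1, median 146) from LPS (40.6 to 68, median 57), with 4.86 to 17.6 in DCVC (median 8.29) and 6.09 to 15.6 in Control (9.88). OCSTAMP, needed for osteoclast fusion, had 54.6 to 135 in DCVC_LPS and 59.8 to 87.2 in LPS, an overlap in which DCVC_LPS library F was the lowest of all 12.

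Of the 3 remaining coding members, all rose. MACC1, an activator of MET transcription, had 312 to 421 in DCVC_LPS (median 334), 191 to 246 in LPS (225), 4.26 to 13.4 in DCVC (6.99) and 0.947 to 7.36 in Control (1.61). It is mainly an LPS-dependent gene by level (LPS minus Control 6.25), and its rise with DCVC alone, 1.44 ± 0.26 (limma adjusted p = 4.9e-05), rests on few reads, 49 in DCVC and 15 in Control. STK17A, a kinase of the death-associated family, had 3241 to 3952 in DCVC_LPS (median 3516), 1662 to 2512 in LPS (2338), 1144 to 1493 in DCVC (1355) and 828 to 1094 in Control (1034). C22orf42, an uncharacterised gene, had 410.3 to 683 in DCVC_LPS (median 661), 62.7 to 266 in LPS (209), 59.8 to 179 in DCVC (127) and 11.5 to 132 in Control (45.9). DCVC and Control overlapped widely, and C22orf42 rose by 1.57 ± 0.46 (limma adjusted p = 0.00526).

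Noncoding genes and pseudogenes were frequent. In the GENCODE 29 annotation, which held all 51 members, 36 were protein coding (70.6%), 8 were long noncoding RNAs (15.7%) and 7 pseudogenes (13.7%). Among the other LPS-raised genes the shares were 95.5%, 2.83% and 1.61%. With DCVC alone 7 of the 8 long noncoding RNAs and 6 of the 7 pseudogenes rose.

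NMRAL2P, a pseudogene of the redox sensor NMRAL1, had the largest difference of all members. It ran from 179.9 to 304 in DCVC_LPS (median 252), 11.9 to 22.8 in LPS (17.1), 78.1 to 99.9 in DCVC (87.6) and 0 to 3.15 in Control (0.994, 8 reads in all). The 4 groups were far apart, and DCVC alone gave more than LPS alone, with a rise of 5.42 ± 0.23 (limma adjusted p = 4.08e-15). TEX41, a long noncoding RNA, had 676 to 1253 in DCVC_LPS (median 1197), 160.2 to 215 in LPS (190), 109.7 to 288 in DCVC (217) and 30.8 to 68.3 in Control (51.4), and rose by 1.93 ± 0.22 (limma adjusted p = 7.87e-08).

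LUCAT1, a stress-induced long noncoding RNA known to limit interferon responses, had 956 to 1644 in DCVC_LPS (median 1153), 546 to 774 in LPS (682), 351 to 428 in DCVC (392) and 136 to 311 in Control (266). No groups overlapped, and LUCAT1 rose by 0.75 ± 0.17 with DCVC alone (limma adjusted p = 0.000505). LINC02541 had 162 to 273 in DCVC_LPS (median 214), 115 to 151 in LPS (126), 25.6 to 45.4 in DCVC (37) and 4.27 to 8.41 in Control (7.12). Its 4 groups were apart, and it rose by 2.28 ± 0.16 with DCVC alone (limma adjusted p = 2.02e-11). H2BP2, a histone pseudogene by name that the annotation lists as noncoding RNA, had 95.5 to 189 in DCVC_LPS (median 149), 17.1 to 109 in LPS (54.6), 45.5 to 87.9 in DCVC (66.4) and 5.21 to 21.3 in Control (14.6). The LPS libraries overlapped with all the other groups, and H2BP2 rose by 2.35 ± 0.37 (limma adjusted p = 8.19e-06). PRECSIT rose by 1.54 ± 0.22 (limma adjusted p = 2.13e-06). KCNQ1OT1 and ASH1L-AS1, antisense to KCNQ1 and ASH1L, had the same change of 1.16.

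ADORA2A-AS1 was the member most bound to LPS. It had 337 to 467 in DCVC_LPS (median 396) and 115 to 179 in LPS (126), but at most 0.852 in DCVC (median 0, 1 read in all 6 libraries) and at most 1.71 in Control (median 0, 3 reads in all). Its neighbour on the opposite strand, ADORA2A, an adenosine receptor, moved the other way under LPS, with 312 to 445 in DCVC_LPS (median 322) and 764 to 975 in LPS (896). The 2 genes share 285 exon bases. ADORA2A-AS1 shares a further 385 with UPB1, also on the opposite strand. UPB1 moved the same way as ADORA2A-AS1, by 0.48 between DCVC_LPS and LPS and by 3.41 between LPS and Control. The strand setting of the counting is not given in the sources used here, so reads in these stretches cannot be assigned.

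CT75, a cancer-testis pseudogene that lies 71.5 kb from SGPP2 on chromosome 2, had 109.6 to 167 in DCVC_LPS (median 144), 28.5 to 47.7 in LPS (45.6), 17.8 to 46.8 in DCVC (39.8) and 5.21 to 20.6 in Control (11.4), and rose by 1.53 ± 0.25 (limma adjusted p = 1.05e-05). The ferritin heavy chain pseudogenes FTH1P2, FTH1P7, FTH1P8 and FTH1P10 moved nearly alike, with DCVC_LPS minus LPS differences of 0.58 to 0.60 and rises of 0.68 to 0.94 with DCVC alone. They are near copies of FTH1, an NRF2-responsive iron store, and their reads may come from it. FTH1 itself had medians of 191513 in DCVC_LPS, 141508 in LPS, 96183 in DCVC and 60302 in Control, and with 0.45 missed the threshold of the rule. Overlap also makes other members uncertain. SQSTM1 shares 20.7% of its exon bases with MRNIP, ZP3 10.3% with SSC4D, ASH1L-AS1 11.1% with ASH1L and SGTB 5.32% with TRAPPC13, each on the other strand. FTH1P10 shares 63.7% and CT75 14.8% with a noncoding gene, also on the other strand. TTC4 shares 52.4% with MROH7-TTC4 on its own strand, where even stranded reads cannot be told apart, and MROH7-TTC4 had a mean of 0.104. SEC22B4P, a copy of SEC22B, had 153 to 302 in DCVC_LPS and 111 to 163 in LPS, and did not pass the test with DCVC alone (0.21 ± 0.18, limma adjusted p = 0.317).

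**Figure D4:**
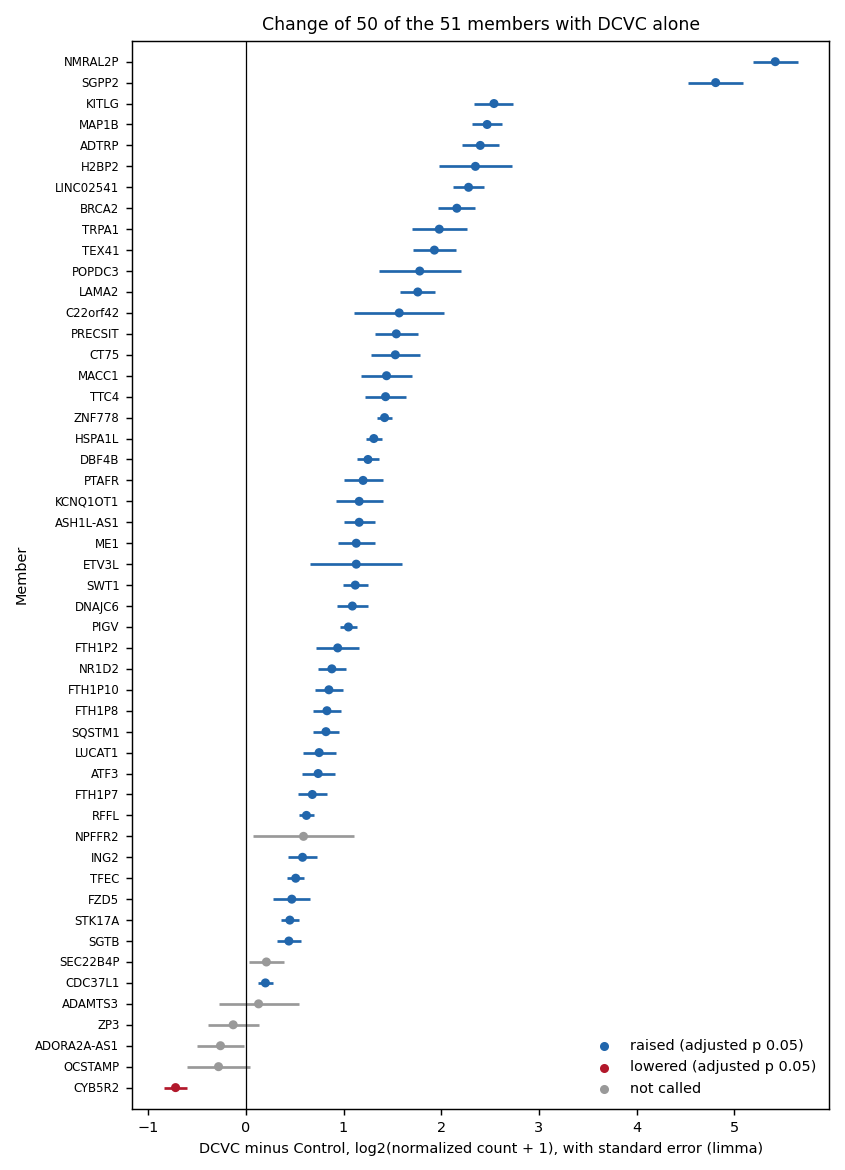
DCVC minus Control change of 50 of the 51 members, as the log2 difference with its standard error from limma, blue where raised, red where lowered and grey where not called at an adjusted p of 0.05. NMRAL2P (5.42) and SGPP2 (4.81) stand apart at the top, and CYB5R2 (-0.72) is the member called lowered.

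The change with DCVC was set beside itself with and without LPS as a description, since the DCVC_LPS minus LPS difference chose the members. It was larger under LPS in 25 members and smaller in 26, and within 0.5 of equal in 23. The 14 members with a change larger by at least 0.5 under LPS included, from larger to smaller, ADORA2A-AS1 (1.82), ZP3 (1.36), CYB5R2, ADAMTS3 (1.17), ATF3 (0.87), OCSTAMP (0.81), SQSTM1 (0.73), FZD5 (0.71) and RFFL (0.62). The 14 with a change smaller by at least 0.5 were led by SGPP2 (-2.52), MAP1B (-1.70), NMRAL2P (-1.60), LINC02541 (-1.56), TRPA1 (-1.40) and KITLG (-1.04). Set against LPS alone, the mean level was higher with DCVC alone in 11 members, namely NMRAL2P, BRCA2, TEX41, SGPP2, ADTRP, KITLG, H2BP2, HSPA1L, PIGV, DBF4B and SWT1. In 19 members every DCVC library lay below every LPS library, and in 2 (NMRAL2P and BRCA2) every one lay above. These counts were not made over all tested genes, and the LPS levels entered the choice of the members.

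**Figure D5:**
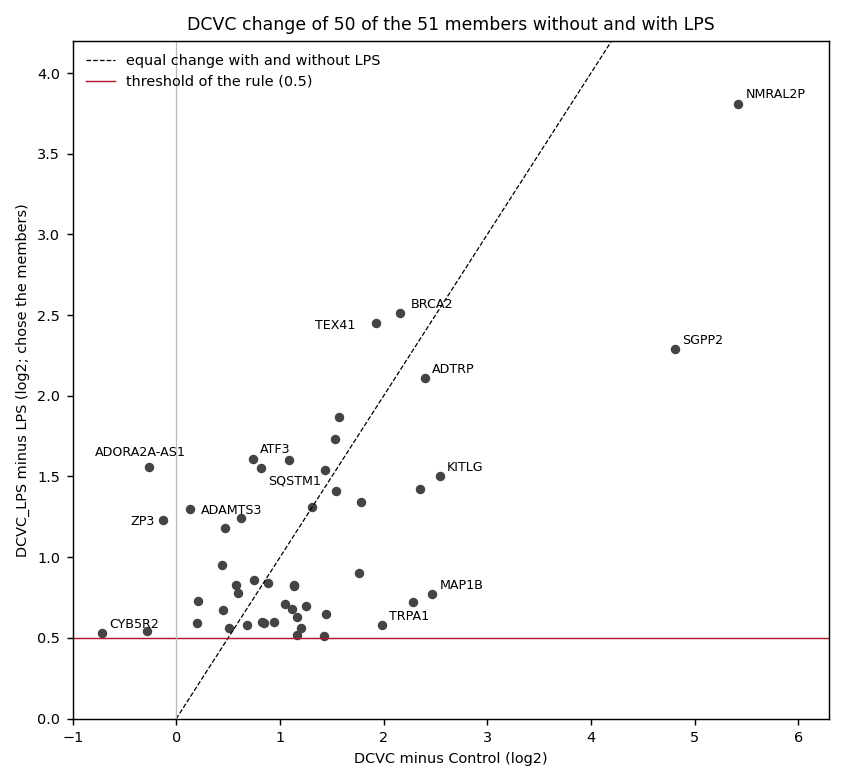
DCVC_LPS minus LPS difference (vertical, which chose the members, threshold 0.5 in red) against the DCVC minus Control change (horizontal) of 50 of the 51 members, both on the log2 scale; the dashed line marks equal change. Points above the line, such as ADORA2A-AS1 and ATF3, changed more under LPS, and points to the right, such as SGPP2 and NMRAL2P, more without it.

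Of 21 pathway lists with 572 tested genes, 4 held a member, and 45 members stood in no list. Among all tested genes 27.5% rose and 32.2% fell with DCVC alone, and 33.3% were raised and 39.4% lowered in DCVC_LPS against LPS. The list of NRF2 targets held ME1, SQSTM1 and LUCAT1. Of its 43 tested genes 34 rose and 2 fell with DCVC alone (median 1.13), and 38 were raised and 3 lowered in DCVC_LPS against LPS (median 1.57), but only 9 had the LPS minus Control difference and mean that the rule asks for. HMOX1, the heme oxygenase of this list, had medians of 25049 in DCVC_LPS, 1069 in LPS, 19172 in DCVC and 5464 in Control, so that LPS stood below Control. AP-1, early and stress transcription factors held ATF3. In that list 14 of 45 rose and 15 fell with DCVC alone (median -0.15), and 9 were raised and 29 lowered in DCVC_LPS against LPS. Lipid mediators and sphingolipids held SGPP2, beside 2 of 22 genes raised and 12 lowered with DCVC alone (median -0.78). Autophagy and lysosome held SQSTM1 and TFEC, with 8 of 23 raised and 8 lowered (median -0.03).

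The lists of classical LPS targets held no member. Members make up only 2.75% of the 1853 LPS-raised genes, and at that share few or none would fall in lists of this size. Among all 13900 tested genes 39.4% were lowered and 33.3% raised in DCVC_LPS against LPS. Of 43 tested cytokines and growth factors 26 had an LPS minus Control difference of at least 1 and a mean of at least 50, and 34 of the 43 were lowered and 3 raised in DCVC_LPS against LPS (median -1.63). Of 23 chemokines 19 were lowered and 0 raised, and of 38 interferon-stimulated genes 37 were lowered and 0 raised (median -2.93). TNF, the leading macrophage cytokine, had medians of 7097 in DCVC_LPS, 103174 in LPS, 68.8 in DCVC and 257 in Control. IL6 had medians of 33 in DCVC_LPS and 2636 in LPS, with a highest value of 1.52 without LPS. NF-kB subunits and inhibitors, 11 of 17 of them past the same LPS threshold, were also without a member, with 12 lowered and 1 raised.

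The edges of the rule were close to genes outside it. Nearest inside the LPS minus Control threshold were PIGV (1.02), SEC22B4P (1.02) and FZD5 (1.04), and nearest outside THUMPD3-AS1, LINC00926 and LINC01004, each at 0.97. For the DCVC_LPS minus LPS threshold ZNF778 (0.51), KCNQ1OT1 (0.52) and CYB5R2 (0.53) were inside and RHOG, UPB1 and DNTTIP2 outside, each at 0.48. For the mean, ZP3 (52.9), ADAMTS3 (54.0) and OCSTAMP (54.6) were inside and TTBK1 (45.6), FTH1P20 (42) and OSR2 (40.4) outside. When any 1 DCVC_LPS, LPS or Control library was left out, 37 members still met the rule every time, and 22 met it within each of the 3 letter pairs.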

How the data were processed

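RNA of 24 libraries was measured, 6 in each of DCVC_LPS, LPS, DCVC and Control. The deposited signal consists of normalized counts, whole reads that the authors divided by 1 factor per library. The values themselves show this, since 100% of those above 0 equal a whole number of reads within a tolerance of 0.1 read. Per the submitters' processing notes, which give no roles, the tools included STAR, featureCounts 1.6.1, DESeq2 1.24.0, R 3.6.0, MultiQC 0.9 and FastQC 0.11.5, on hg38. The strandedness is not given in the sources used here. Of 58381 entries 19595 (33.6%) carry no gene name and hold 0.828% to 1.13% of reads. These were left out, and 51 symbols on more than 1 entry were summed.

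Genes averaging at least 10, 13900 in all, were tested as log2(value + 1) with limma 3.58.1 in R 4.3.3 (trend, all 24 libraries, 1 mean per group, Benjamini-Hochberg adjustment). A table of normalized values called for this test. The count tests edgeR 4.0.16 and DESeq2 1.42.0 on the recovered reads were alternatives, beside other pseudocounts, filters, scalings, a replicate block, letter pairs and each library left out. The test was checked on simulated data. Members were found by the stated rule, and the members, the gene lists, the motifs and the roles were chosen with earlier results of these data known. Of the members, 1 is counted but not reported here by name. Given with lowest, median and highest library were the 15 largest DCVC_LPS minus LPS differences, the 10 largest LPS minus Control differences, the 10 highest means and the 10 largest called changes each way with DCVC alone, and further members were given so for their role. Gene positions and types come from GENCODE 29, and promoters from RefSeq.

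The labels leave the meaning of the letters A to F unstated. Deviations from the group means of libraries with the same letter in different groups correlated in all 36 pairs (0.13 to 0.54, median 0.33), against -0.45 to 0.03 for letters of other pairs. The letters were therefore taken to pair the libraries in the replicate block, but the main fit did not pair them. Partner letters (A and B, C and D, E and F) correlated at 0.05 to 0.46 (median 0.29). Libraries of partner letters may thus not be independent, and the p-values of the main fit do not allow for this.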

Additional observations from a re-analysis of the deposited data

Results flagged for a closer look

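In 12 of 204 combinations of a member and a group, the highest or lowest of the 6 libraries stood apart from the other 5 by a gap past Dixon's 95% critical value. Chance flags about 1 in 20. Library F was the one apart in 3 members in LPS and 2 in DCVC_LPS. In LPS, library F had 6671 for ATF3 (the others 3267 to 4159), 19.9 for ADAMTS3 (51.8 to 76.3) and 421 for NR1D2 (489.9 to 531). In DCVC_LPS, library F had 410.3 for C22orf42 (648 to 683) and 799 for DNAJC6 (511 to 595). Library E in LPS had 140.2 for BRCA2 (252 to 302) and 41.4 for KCNQ1OT1 (66 to 84). In DCVC, library F had 17.8 for CT75 (32.9 to 46.8), and library A had 0.852 for ADORA2A-AS1, which is 1 read where the others had 0. In Control, library F had 181 for BRCA2 (81.4 to 107), library A had 7.36 for MACC1 (0.947 to 1.81) and library E had 6.25 for KCNQ1OT1 (16.3 to 27.3). Leaving out single libraries did not end the DCVC minus Control call of BRCA2, CT75, MACC1, KCNQ1OT1, ATF3, DNAJC6, NR1D2 or C22orf42. ADAMTS3 met the rule without LPS library F, and lost it without DCVC_LPS library C or E.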

How the results depend on the processing

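The count of members raised by DCVC alone stayed between 40 and 45 in the 37 alternatives. With the letters paired in a replicate block 45 members rose and 1 fell, and the block ended no call. At equal totals the median change was 1.38, all genes split into 6452 raised and 2789 lowered, and 711 other LPS-raised genes rose. Letters A and B alone gave a median of 0.87 and 2 lowered members, and E and F alone a median of 1.32, 0 lowered members and 2299 raised genes. Equal totals move DCVC minus Control changes up, since the DCVC to Control ratio of the deposited totals was -0.25 on the log2 scale. The letter pairs held fewer libraries, and the cause of their values was not tested. Leaving out 1 library gave 41 to 44 raised members and medians of 1.02 to 1.23. ETV3L, FZD5 and CDC37L1 lost their calls in some of these (adjusted p up to 0.132, 0.13 and 0.0756), and FZD5 and ETV3L also without a filter on low values and with the DCVC and Control libraries alone. Letters A and B alone ended the calls of ETV3L, MACC1 and FTH1P2, among others, and E and F alone those of FZD5, NR1D2, STK17A, CDC37L1, PTAFR and CYB5R2. No change reversed in sign among the called members. With a mean of at least 10, 108 genes met the rule, all 51 members among them. Leaving out 1 DCVC_LPS, LPS or Control library moved the number meeting it to between 47 and 58, with 45 to 51 members shared. Members with under 100 normalized counts rest on few reads, and counting error limits their precision, most of all where Control is near 0.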
